A study of Caenorhabditis elegans with 3 samples.

Results

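The 7 genes described here encode the main heat shock protein chaperones of Caenorhabditis elegans: hsp-1 (F26D10.3), hsp-110 (C30C11.4), daf-21 (C47E8.5), hsp-3 (C15H9.6), hsp-4 (F43E2.8), hsp-6 (C37H5.8) and hsp-60 (Y22D7AL.5). They were chosen by sequence name and family, though with earlier results of these data known, and are 7 of 45836 gene entries in the deposited table. All 7 were among the 11345 genes with enough reads to be tested. Their transcripts were measured by RNA sequencing in gonads dissected from young adult hermaphrodites.

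All animals were of N2, the wild-type laboratory strain, grown at 24 °C on bacteria making double-stranded RNA. In the csr-1 RNAi group the bacteria targeted csr-1, which encodes a germline Argonaute, a protein guided to transcripts by small RNAs. In the P granule RNAi group they targeted P granule components together, known for this study to be glh-1, glh-4, pgl-1 and pgl-3. P granules are condensates of RNA and protein at the nuclei of germ cells. The empty vector group, fed HT115 bacteria carrying the plasmid L4440 with no insert, was the control, and all 3 groups shared the strain, the feeding and the temperature. Each group had 4 libraries, named orig, 1, 2 and 3, which the series calls biological replicates, and each library pooled 400 to 500 gonad arms cut at the bend. The comparisons ask how germline transcripts depend on the Argonaute and on P granules.

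Heat shock protein chaperones bind unfolded proteins and use ATP to help them fold, assemble or cross membranes. HSP70 proteins work in cycles driven by J-domain proteins and nucleotide exchange factors, HSP90 acts on partly folded clients such as kinases, and HSP60 encloses proteins in a barrel inside mitochondria. Each compartment has its own members: the cytosol, the endoplasmic reticulum (ER) and the mitochondrial matrix. Germ cells make large amounts of protein for the oocytes, and these genes are expressed there without heat stress.

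Libraries held 18.4 to 31.9 M (megareads) assigned to genes. csr-1 fell under csr-1 RNAi to 3836 ± 1565 normalised reads, against 23553 ± 1583 in empty vector (SD, n = 4 each; log2 fold change −2.70, limma adjusted p = 3.56e-05). Of the P granule targets, pgl-1 (−3.25, adjusted p = 3.01e-06), pgl-3 (−2.65, adjusted p = 3.01e-06) and glh-4 (−2.22, adjusted p = 1.97e-05) fell on the log2 scale against empty vector, and glh-1 did not pass (−0.52, adjusted p = 0.299). The csr-1 transcript had a log2 fold change of −0.60 under P granule RNAi (limma adjusted p = 0.317). With csr-1 RNAi, glh-1 (1.38, adjusted p = 0.000326) and glh-4 (1.22, adjusted p = 0.000556) rose against empty vector (limma). There pgl-1 (0.07) and pgl-3 (−0.22) did not pass. The 6 germline markers summed to 127258 to 141002 normalised reads per csr-1 RNAi library, 126990 to 193263 per P granule RNAi library and 146993 to 190200 per empty vector library. Of these, gld-1, a regulator of meiosis, fell under csr-1 RNAi (log2 fold change −0.76, limma adjusted p = 0.00395), and the other 5 did not pass. Intestine markers were present in all groups, with sums of 8121 to 42838, 3478 to 41247 and 8763 to 49155 normalised reads in csr-1 RNAi, P granule RNAi and empty vector libraries. Markers of the gonadal sheath summed to 381, 410 and 525 reads in the orig libraries of those groups and to 1029 or more in the other 9 libraries. Sperm markers summed to 169 to 4558, 501 to 2501 and 168 to 804 reads. No marker of these lists was at 0 throughout a group. In such bulk samples, fewer cells of a type cannot be told apart from less RNA per cell.

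The 7 chaperones stood high among germline transcripts. In empty vector libraries, hsp-1 averaged 80347 ± 7175 normalised reads per kb of coding sequence (SD, n = 4) and ranked 64th of 10847 coding genes by that measure. daf-21 followed with 71444 ± 11653 per coding kb (rank 84), then hsp-6 with 17114 ± 2531 (rank 173) and hsp-60 with 15817 ± 2469 (rank 189). hsp-110 had 10259 ± 1261 per coding kb (rank 319), hsp-4 had 7513 ± 998 (rank 445) and hsp-3 had 3636 ± 821 (rank 1086). The empty vector libraries of hsp-1 and daf-21 overlapped on this scale, as did those of hsp-6 and hsp-60 and those of hsp-110 and hsp-4. The steps between daf-21 and hsp-6, hsp-60 and hsp-110, and hsp-4 and hsp-3 had no overlap. Under csr-1 RNAi hsp-3 ranked 2282nd with 2104 ± 367 per coding kb and hsp-6 ranked 318th with 11262 ± 1045, while daf-21 ranked 67th and hsp-1 74th. Together the 7 genes took 1.26% to 1.61% of the gene reads in csr-1 RNAi libraries, 1.44% to 1.66% in P granule RNAi libraries and 1.50% to 1.75% in empty vector libraries.

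In csr-1 RNAi gonads, 2 of the 7 chaperone transcripts passed the test over all genes against empty vector, and both were lower: hsp-3 of the ER and hsp-6 of the mitochondria. This is to be read against 14.8% of all tested genes called in that comparison, 7.8% lower and 6.98% higher (limma, Benjamini-Hochberg adjusted p at most 0.05). The members' median log2 fold change was −0.24, against 0.02 over all genes. At an unadjusted p of at most 0.05 there were 3 of the 7, against 28.6% of all genes. For 3 members, hsp-1, hsp-3 and hsp-6, every csr-1 RNAi library lay under every empty vector library, which held for 11.7% of all genes.

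**Figure D1:**
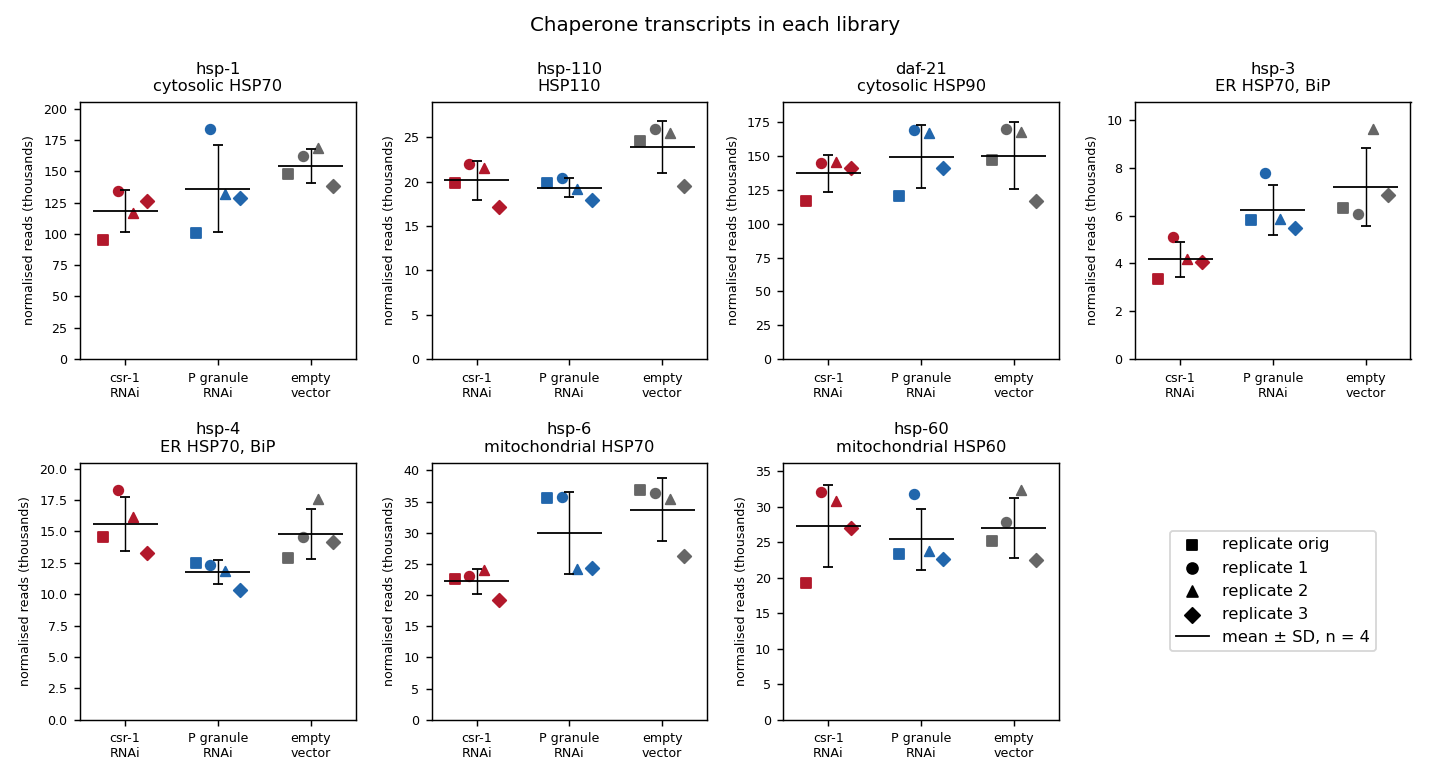
Normalised reads (linear axis from 0) of the 7 chaperone genes in each of 12 libraries, for csr-1 RNAi, P granule RNAi and empty vector. Symbols mark the replicate and bars the mean ± SD (n = 4). For hsp-3 and hsp-6 the 4 csr-1 RNAi libraries sit below every library of the other 2 groups. For hsp-6 the gap to P granule RNAi is narrow, 23984 against 24263 reads. The share of all genes with this pattern was not computed.

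The ER has 2 members, hsp-3 and hsp-4, both encoding BiP, the HSP70 of the ER lumen that folds secreted and membrane proteins and restrains the sensors of the unfolded protein response. hsp-4 is the copy known in worms for its strong induction by ER stress. Values below are normalised reads in replicates orig, 1, 2 and 3, in that order. hsp-3 had 3328, 5103, 4202 and 4056 reads in csr-1 RNAi libraries, 5836, 7770, 5845 and 5478 in P granule RNAi libraries, and 6302, 6087, 9606 and 6849 in empty vector libraries. Every csr-1 RNAi library was below every library of both other groups, a pattern whose share over all genes was not computed. hsp-3 fell under csr-1 RNAi to 0.582 times its empty vector level (log2 fold change −0.78, SE 0.18, 95% interval −1.17 to −0.40, limma adjusted p = 0.0122). This call held in all 18 alternative analyses of that comparison, with adjusted p from 0.00104 to 0.0406. Against P granule RNAi the log2 fold change was −0.58 (95% interval −0.97 to −0.20) and missed the threshold (limma adjusted p = 0.0603).

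hsp-4, its paralog, was called by limma in 0 of the 3 comparisons. It had 14575, 18288, 16163 and 13262 reads in csr-1 RNAi libraries, 12474, 12343, 11809 and 10363 in P granule RNAi libraries, and 12921, 14590, 17561 and 14160 in empty vector libraries. The csr-1 RNAi and empty vector libraries overlapped, and all 4 P granule RNAi libraries lay below both. The log2 fold change of hsp-4 against empty vector was 0.07 under csr-1 RNAi (95% interval −0.22 to 0.36, adjusted p = 0.766) and −0.33 under P granule RNAi (−0.62 to −0.04, adjusted p = 0.341, limma). Between csr-1 RNAi and P granule RNAi it was 0.40 (0.11 to 0.69, limma adjusted p = 0.0827), which missed the threshold although the groups did not overlap.

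Within each library, the ratio of hsp-3 to hsp-4 in reads per coding kb was 0.227, 0.277, 0.258 and 0.304 under csr-1 RNAi. It was 0.465, 0.626, 0.492 and 0.525 under P granule RNAi and 0.485, 0.415, 0.544 and 0.481 with empty vector. All 4 csr-1 RNAi ratios were below all 8 others. The ratio was formed after the values of its genes had been seen and is given as a description with no test. The summed reads of both BiP genes overlapped, at 17318 to 23391 in csr-1 RNAi, 15842 to 20113 in P granule RNAi and 19222 to 27167 in empty vector libraries. The genes are close paralogs, and reads without a unique alignment were not counted for any gene, which limits the exactness of each value.

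hsp-3 is the only X-linked member in the WBcel235 annotation. Under csr-1 RNAi, 202 of 1318 tested X-linked genes were lower and 26 higher, with a median log2 fold change of −0.32 against empty vector. On the autosomes 667 of 9903 were lower and 764 higher, with a median of 0.06. The log2 fold change of hsp-3, −0.78, was larger in size than the median of its chromosome. The spread around that median was not examined, so the difference does not set hsp-3 apart from other X-linked genes. The part of the X-linked shift and of the lower germline marker sum in the hsp-3 value was not tested.

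The mitochondrial matrix holds hsp-6, the HSP70 that pulls proteins in through the inner membrane, and hsp-60, the chaperonin that folds them. hsp-6 had 22545, 23017, 23984 and 19242 reads in csr-1 RNAi libraries, 35614, 35712, 24263 and 24341 in P granule RNAi libraries, and 36842, 36410, 35372 and 26305 in empty vector libraries. The csr-1 RNAi libraries were the lowest 4 of the 12, narrowly so beside P granule RNAi (23984 against 24263). Against P granule RNAi the log2 fold change was −0.41 and did not pass (limma adjusted p = 0.162). Empty vector replicate 3 lay well below the other 3 of its group. hsp-6 fell under csr-1 RNAi to 0.662 times its empty vector level (log2 fold change −0.60, SE 0.17, 95% interval −0.96 to −0.23, limma adjusted p = 0.0336). The call was less stable than that of hsp-3, holding in 11 of 18 alternatives. It was lost without csr-1 RNAi replicate 1 (adjusted p = 0.0712), 2 (0.061) or 3 (0.0681), without empty vector replicate orig (0.0881), 1 (0.094) or 2 (0.0946), and without the 3 orig libraries (0.0803), where the log2 fold change was −0.63 to −0.53.

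hsp-60, the partner of hsp-6 in the matrix, had 19295, 32108, 30731 and 26984 reads in csr-1 RNAi libraries, 23330, 31784, 23748 and 22656 in P granule RNAi libraries, and 25094, 27903, 32322 and 22491 in empty vector libraries. The 3 groups overlapped throughout. Its log2 fold change against empty vector was 0.00 under csr-1 RNAi (95% interval −0.39 to 0.40, adjusted p = 0.993) and −0.09 under P granule RNAi (−0.48 to 0.31, adjusted p = 0.818, limma). The hsp-6 to hsp-60 ratio per coding kb was 1.01, 0.62, 0.675 and 0.616 under csr-1 RNAi, 1.32, 0.971, 0.883 and 0.929 under P granule RNAi, and 1.27, 1.13, 0.946 and 1.01 with empty vector. Replicates 1, 2 and 3 of csr-1 RNAi had the lowest ratios, and its replicate orig lay within the range of both other groups.

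**Figure D2:**
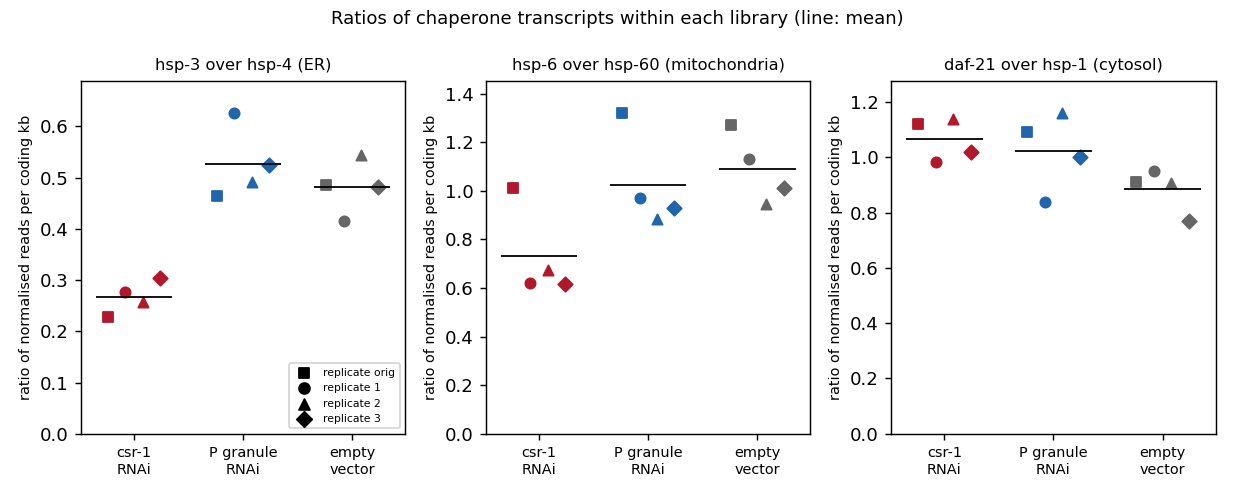
Ratios of reads per coding kb between chaperones of the same compartment in each of 12 libraries (linear axes from 0; line, group mean), for csr-1 RNAi, P granule RNAi and empty vector. The hsp-3 to hsp-4 ratio is 0.227 to 0.304 in csr-1 RNAi libraries and 0.415 or more in all others.

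The cytosolic members are hsp-1, the constitutive HSP70 that folds new proteins, hsp-110, a relative of HSP70 that exchanges its nucleotide, and daf-21, the HSP90. hsp-1 had 95409, 134475, 116791 and 126268 reads in csr-1 RNAi libraries, 100850, 183608, 131837 and 128759 in P granule RNAi libraries, and 147572, 162606, 168503 and 138383 in empty vector libraries. All csr-1 RNAi libraries were below all empty vector libraries, and the P granule RNAi libraries spanned both groups. The log2 fold change of hsp-1 against empty vector was −0.39 under csr-1 RNAi (SE 0.18, 95% interval −0.78 to −0.004, adjusted p = 0.17) and −0.21 under P granule RNAi (−0.60 to 0.18, adjusted p = 0.54, limma). Neither passed the test over all genes.

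hsp-110 had 19869, 21947, 21522 and 17197 reads in csr-1 RNAi libraries, 19816, 20371, 19203 and 17882 in P granule RNAi libraries, and 24606, 25893, 25481 and 19552 in empty vector libraries. Replicates orig, 1 and 2 of empty vector were above all RNAi libraries, and replicate 3 lay among them. Its log2 fold change against empty vector was −0.24 under csr-1 RNAi (95% interval −0.51 to 0.03, adjusted p = 0.217) and −0.30 under P granule RNAi (−0.57 to −0.03, adjusted p = 0.343, limma).

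daf-21, named hsp-90 in the annotation and known in worms for its role in the choice between reproductive growth and the dauer larva, had 117074, 144902, 145993 and 141217 reads in csr-1 RNAi libraries. It had 120749, 169141, 167264 and 141521 in P granule RNAi libraries and 147440, 169795, 167707 and 116900 in empty vector libraries. The groups overlapped, and the lowest empty vector library was below every csr-1 RNAi library. Its log2 fold change against empty vector was −0.12 under csr-1 RNAi (95% interval −0.47 to 0.23, adjusted p = 0.654) and −0.01 under P granule RNAi (−0.35 to 0.34, adjusted p = 0.988, limma). An exon of daf-21 overlaps C47E8.4 on the opposite strand, and the library kit does not mark strand, so reads there cannot be told apart. C47E8.4 rose under csr-1 RNAi to 3067 ± 454 reads, against 1621 ± 150 in empty vector (SD, n = 4; log2 fold change 0.91, limma adjusted p = 0.00131), a small number beside daf-21.

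The daf-21 to hsp-1 ratio per coding kb was 0.982 to 1.14 under csr-1 RNAi, 0.84 to 1.16 under P granule RNAi and 0.77 to 0.952 with empty vector. All 4 csr-1 RNAi ratios were above all empty vector ratios, again as a description with no test. The hsp-110 to hsp-1 ratio overlapped between groups, at 0.112 to 0.172, 0.0915 to 0.162 and 0.117 to 0.138 in the same order.

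P granule RNAi left all 7 chaperones without a call against empty vector, where 0.0617% of all genes were called (7 genes, limma). edgeR and DESeq2 called 0 of the 7 as well. All 7 fold changes were negative, with a median log2 value of −0.20, against 0.03 over all genes. Those of daf-21 (−0.005) and hsp-60 (−0.088) were near 0 and changed sign in some alternatives. Of the 96 tested genes in the wider chaperone lists below, 68 were negative as well. The share of negative values over all genes was not computed. hsp-4 and hsp-110 had an unadjusted p of at most 0.05, 2 of 7, against 13.8% of all genes. Only hsp-4 had all 4 libraries below all 4 of empty vector, which held for 7.06% of genes.

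Set directly against P granule RNAi, csr-1 RNAi gave 0 calls among the 7 with limma and with edgeR, against 9.52% of all genes (4.27% lower, 5.25% higher). DESeq2 called 2 of them, hsp-3 lower (adjusted p = 0.0302) and hsp-4 higher (adjusted p = 0.0336), and limma without csr-1 RNAi replicate 3 called hsp-4 (adjusted p = 0.0288). At an unadjusted limma p of at most 0.05 there were 3, hsp-3, hsp-4 and hsp-6, against 23.3% of all genes. All 4 csr-1 RNAi libraries were below all P granule RNAi libraries for hsp-3 and hsp-6 and above them for hsp-4, which held for 7.9% and 7.4% of genes. The fall of hsp-3 and hsp-6 against empty vector is therefore not shown by limma to differ between the 2 RNAi groups. Both comparisons with empty vector share the same 4 control libraries.

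**Figure D3:**
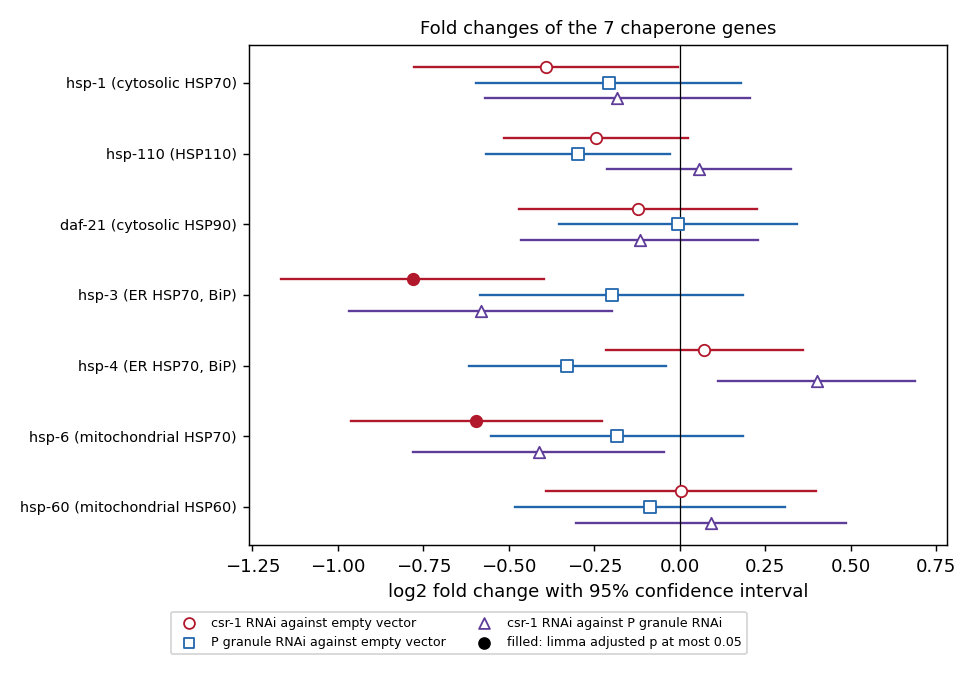
Log2 fold changes of the 7 chaperone genes with 95% intervals (limma, 4 libraries per group), for csr-1 RNAi against empty vector, P granule RNAi against empty vector and csr-1 RNAi against P granule RNAi. Filled symbols passed the test over all genes: hsp-3 (−0.78) and hsp-6 (−0.60) under csr-1 RNAi.

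The authors' deposited table of DESeq results gave none of the 7 an adjusted p of 0.05 or less in either comparison with empty vector. In the authors' deposited table the DESeq adjusted p under csr-1 RNAi was 0.635 for hsp-3 and 0.92 for hsp-6. The authors' deposited tables called 982 of 19023 genes for csr-1 RNAi and 104 of 18642 for P granule RNAi at 0.05. The authors' deposited group means of the 7 genes are the means of the same 12 libraries, so hsp-3 and hsp-6 were called by limma and not by the authors' test from the same values.

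The chaperones also varied within groups. After removing group means, Pearson's r of log2 values over the 12 libraries ran from 0.15, for hsp-1 and hsp-6, to 0.83 over the 21 pairs. It was 0.83 for hsp-3 and hsp-60, 0.81 for hsp-1 and hsp-60 and 0.80 for hsp-1 and daf-21. For hsp-3 and hsp-4 it was 0.75 after and 0.01 before removing group means. These are descriptions: both values of a pair come from the same libraries and share their scaling.

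Over the 12 libraries, the genes outside the set whose log2 values ran closest to a member were named by Pearson's r, again as a description. For hsp-1 these were rpl-7A, a ribosomal protein gene (0.973), and C24G6.8 (0.969). For hsp-3 they were Y6B3B.1 (0.960) and acs-19 (0.953), and for hsp-4 cec-10 (0.905) and dpl-1 (0.897). For hsp-6 they were gex-5 (0.959) and ogdh-1, a subunit of the mitochondrial oxoglutarate dehydrogenase (0.949). Subunit genes of TRiC, the cytosolic chaperonin, appeared beside 3 members: cct-6 for hsp-60 (0.822, after F59B1.8 at 0.864), cct-2 for hsp-110 (0.929, after cdc-48.2 at 0.936) and cct-5 for daf-21 (0.892, after mppa-1 at 0.925).

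The wider chaperone network was examined in 9 lists holding 110 distinct genes, of which 96 could be tested. Under csr-1 RNAi against empty vector 4 rose and 7 fell, or 11.5% of the 96, below the 14.8% of all genes, with a median log2 fold change of −0.05. edgeR called 8 of them and DESeq2 14. Under P granule RNAi against empty vector limma, edgeR and DESeq2 each called 0 of the 96. At an unadjusted limma p of at most 0.05 there were 11, against 13.8% of all genes. Between csr-1 RNAi and P granule RNAi 4 were higher and 1 lower, or 5.21% of the 96, against 9.52% of all genes.

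Of the genes that help HSP70 and HSP90, 12 co-chaperones were tested and 2 rose under csr-1 RNAi, where 6.98% of all genes rose. bag-1, a nucleotide exchange factor of HSP70, rose to 2974 ± 366 reads, against 1924 ± 350 in empty vector (log2 fold change 0.64, limma adjusted p = 0.0108). fkb-6, an immunophilin that binds HSP90, rose to 16833 ± 1127 reads, against 12102 ± 1692 in empty vector (0.49, limma adjusted p = 0.0324), and was also higher than under P granule RNAi (0.58, adjusted p = 0.0195). For both genes all 4 csr-1 RNAi libraries were above all 4 empty vector libraries. The share of all genes for which that held was not computed.

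Of 29 J-domain genes, which stimulate HSP70, 0 rose and 2 fell under csr-1 RNAi, where 6.98% of all genes rose and 7.8% fell. dnj-25, the auxilin that uncoats clathrin vesicles with HSP70, fell to 1601 ± 152 reads, against 2596 ± 218 in empty vector (log2 fold change −0.70, limma adjusted p = 0.00348). The log2 fold change of dnj-25 under P granule RNAi against empty vector was −0.41 (limma adjusted p = 0.289). Between the RNAi groups it did not pass (adjusted p = 0.185, limma). dnj-7, the ER J-domain protein related to P58IPK, fell to 257 ± 48.3 reads, against 395 ± 77.4 in empty vector (−0.62, limma adjusted p = 0.0485), a call lost with edgeR (adjusted p = 0.0699). dnj-10, a mitochondrial J-domain gene, was higher under csr-1 RNAi than under P granule RNAi, with 3219 ± 605 against 1896 ± 272 reads (0.75, adjusted p = 0.0115). Against empty vector dnj-10 did not pass under csr-1 RNAi (0.41, limma adjusted p = 0.11) or P granule RNAi (−0.35, adjusted p = 0.36).

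Of 14 genes of TRiC and its helper prefoldin, which fold actin and tubulin, 2 fell and 0 rose under csr-1 RNAi. Those counts stand against 7.8% of all genes lower and 6.98% higher. cct-3 fell to 9291 ± 871 reads, against 12543 ± 1525 in empty vector (log2 fold change −0.43, limma adjusted p = 0.0293). The log2 fold change of cct-3 under P granule RNAi against empty vector was −0.35 (limma adjusted p = 0.316). Between the RNAi groups it did not pass (adjusted p = 0.8, limma). cct-8 fell to 9596 ± 454 reads, against 13385 ± 2097 in empty vector (−0.47, limma adjusted p = 0.0488), a call lost with edgeR (adjusted p = 0.0652). The list's median was −0.05.

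Of 20 genes of ER folding and the unfolded protein response, 2 fell and 0 rose under csr-1 RNAi, against 7.8% and 6.98% of all genes. The list's median log2 fold change was −0.16. uggt-1, the glucosyltransferase that returns misfolded glycoproteins to calnexin, fell to 976 ± 267 reads, against 2016 ± 438 in empty vector (−1.07, limma adjusted p = 0.00805), and dnj-7 was the other. Both are X-linked, as hsp-3 is, and so is atf-6, named below, whose fold change under csr-1 RNAi was positive. The log2 fold change of uggt-1 under P granule RNAi against empty vector was −0.56 (limma adjusted p = 0.337). Between the RNAi groups uggt-1 did not pass (adjusted p = 0.196, limma). Against P granule RNAi, csr-1 RNAi gonads had higher cnx-1, which encodes calnexin (0.67, adjusted p = 0.0271), and higher atf-6, a sensor of the unfolded protein response (0.88, adjusted p = 0.0334). The cnx-1 libraries of the RNAi groups overlapped. Against empty vector cnx-1 was 0.34 under csr-1 RNAi and −0.33 under P granule RNAi (limma adjusted p = 0.211 and 0.377). In the same order atf-6 was 0.47 and −0.41 (adjusted p = 0.206 and 0.398), so neither gene passed there. Of all 11 X-linked genes tested in the lists, 9 had a negative log2 fold change under csr-1 RNAi against empty vector, 2 of them called by limma, 1 by edgeR and 4 by DESeq2, and their median was −0.55. Of all tested X-linked genes 15.3% were called lower by limma in that comparison. The 85 on autosomes had a median of 0.00.

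Of 13 genes of the mitochondrial unfolded protein response, 1 rose and 1 fell under csr-1 RNAi, against 6.98% and 7.8% of all genes. The list's median log2 fold change was −0.19. haf-1, which exports peptides from the matrix and is needed for that response in worms, had 35.6, 31.1, 34.8 and 41 reads in csr-1 RNAi libraries, 109, 83.7, 108 and 93.6 in P granule RNAi libraries, and 119, 117, 119 and 124 in empty vector libraries. The csr-1 RNAi libraries lay far below all others (against empty vector −1.73, adjusted p = 0.000277; against P granule RNAi −1.44, adjusted p = 0.00109, limma). ubl-5, a ubiquitin-like factor of the response, rose to 706 ± 231 reads, against 390 ± 95.6 in empty vector (0.83, limma adjusted p = 0.0381). Its csr-1 RNAi and empty vector libraries overlapped. The log2 fold change of ubl-5 under P granule RNAi against empty vector was 0.70 (limma adjusted p = 0.317). Between the RNAi groups it did not pass (adjusted p = 0.855, limma). Of the heat shock factor list, 5 genes were tested, to be read against the same 6.98% and 7.8% of all genes. hsb-1, a binding protein that restrains the factor, rose (0.44, adjusted p = 0.0199), ddl-2, which acts with it in worms, fell (−0.67, adjusted p = 0.0384, but 0.0639 with edgeR), and hsf-1 itself did not pass (−0.48, adjusted p = 0.106, limma).

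The remaining lists had 0 limma calls in any comparison. Of 4 tested genes of the other HSP70 family list, 1 had an unadjusted limma p of at most 0.05 under csr-1 RNAi, against 28.6% of all genes. DESeq2 called 1 there and edgeR 0. Its most abundant members were T24H7.2, with 4511 ± 2623, 5367 ± 1620 and 6913 ± 1271 reads in csr-1 RNAi, P granule RNAi and empty vector gonads, and stc-1, with 1974 ± 108, 2010 ± 239 and 2146 ± 284. The heat-inducible hsp-70 (C12C8.1), named after its values were seen, averaged 2.83, 8.61 and 4.80 reads, too few to be tested. The other HSP90 genes were enpl-1 of the ER, with 13356 ± 2542, 12801 ± 1129 and 17106 ± 2353 reads in the same order of groups, and hsp-75 of the mitochondria, with 4371 ± 703, 4431 ± 477 and 5663 ± 196. Both had an unadjusted limma p of at most 0.05 against empty vector under csr-1 RNAi (28.6% of all genes) and P granule RNAi (13.8%). Neither passed: in that order the limma adjusted p was 0.143 and 0.329 for enpl-1 and 0.0658 and 0.317 for hsp-75. edgeR and DESeq2 called 0 of them.

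Of 16 small heat shock protein genes, 5 could be tested, with 0 called by edgeR or DESeq2. Under csr-1 RNAi 1 had an unadjusted limma p of at most 0.05, against 28.6% of all genes. sip-1, the small heat shock protein of oocytes and embryos, had 73253, 64977, 49834 and 51295 reads in csr-1 RNAi libraries, 30969, 89603, 24421 and 28864 in P granule RNAi libraries, and 42709, 30946, 35047 and 31579 in empty vector libraries. All 4 csr-1 RNAi libraries were above all 4 empty vector libraries, and P granule RNAi replicate 1 was the highest of all 12. How many of all genes separate upward in this way was not computed. The log2 fold change of sip-1 under csr-1 RNAi was 0.76 (SE 0.33, limma adjusted p = 0.153). hsp-25 had 226 ± 114, 249 ± 116 and 147 ± 23 reads in csr-1 RNAi, P granule RNAi and empty vector gonads. The stress-inducible hsp-16.2 and hsp-16.41 had at most 7.53 reads in any csr-1 RNAi or empty vector library, and 50.7 and 57.1 in P granule RNAi replicate 1.

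**Figure D4:**
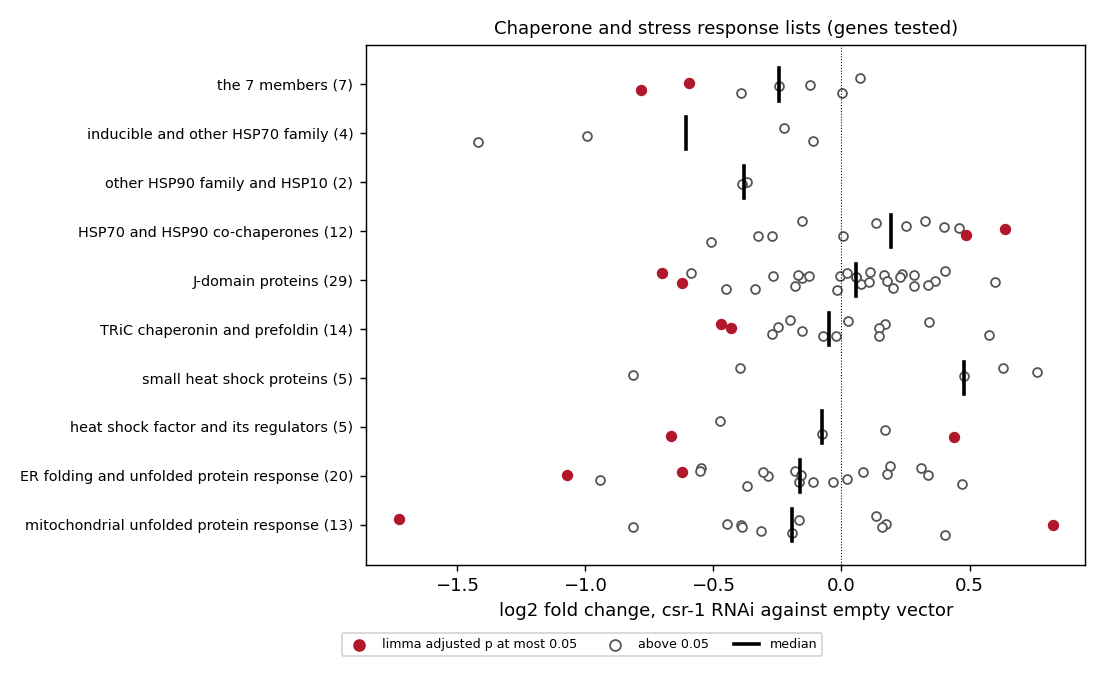
Log2 fold changes under csr-1 RNAi against empty vector (limma, 4 libraries per group) for the 7 members and 9 lists of chaperone and stress response genes, with the number tested in brackets. Each point is a gene, filled where the adjusted p was at most 0.05, and bars mark medians. A gene held by several lists, such as dnj-7, is drawn in each of them. The lowest filled point is haf-1 at −1.73.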

How the data were processed

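Unstranded libraries were made from 1.5 to 4 µg of total RNA and sequenced single-end at 100 bp, per the labels' protocols. The tools listed in the submitters' processing notes are DESeq 1.1.2.1, HTSeq 0.5.4p3, TopHat2 2.0.8b, SAMtools 0.1.18 and CASAVA. The genome build was not given in the sources used here. GEO's labels cover 3 samples, and the deposited table has 12 columns named by group and replicate. The meaning of orig is not given.

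The authors deposited a normalised signal per gene, reads divided by a size factor per library. All values were whole multiples of a library step (100% within 0.05 reads), so whole reads were recovered. Reads without a unique alignment came to 2.04% to 2.76% and ambiguous reads to 0.78% to 0.92%; these and the other entries that name no gene, 5 in all, were left out. The authors also deposited p-values, adjusted p-values and group means of the same signal, per the file headers.

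limma 3.58.1 (R 4.3.3; trend, robust) was fitted on log2(value + 1) to genes that reached a value of 10 in 4 or more libraries, one mean per group, with Benjamini-Hochberg adjustment at 0.05. This scale understates changes of genes with few reads. edgeR 4.0.16 (TMM) and DESeq2 1.42.0 on the recovered reads were alternatives. The procedure was also run on simulated reads with changes larger than those of hsp-3 and hsp-6, which does not bear on changes of their size. WBcel235 served for names, chromosomes, neighbours and coding lengths (98.99% of entries matched). Per-kb levels use coding length, although reads also fall in untranslated parts.

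Members and lists were chosen with earlier results of these data known. All 7 members are named, and of each list the called genes with the largest changes, at most 4 per comparison, or its 2 most abundant genes where 0 were called. In the lists the mitochondrial HSP90 was first entered under the symbol trap-1, which belongs to a translocon gene, Y71F9AM.6, and was replaced by hsp-75 after the values were seen. The p-values measure the spread between these libraries.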

Additional observations from a re-analysis of the deposited data

Results flagged for a closer look

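In 4 of the 21 member and group pairs, 1 library stood apart by Dixon's ratio, the gap to its nearest neighbour over the range of its group (above the 95% critical value for 4 libraries, which chance gives in about 1 of 20 groups). hsp-60 was highest in P granule RNAi replicate 1, with a ratio of 0.88, and hsp-3 was highest in the same library, with a ratio of 0.84. hsp-6 was lowest in empty vector replicate 3, with a ratio of 0.861. daf-21 was lowest in csr-1 RNAi replicate orig, with a ratio of 0.835.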

How the results depend on the processing

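Each result was recomputed under 18 alternatives per comparison: pseudocounts of 10 and 0.5, no filter and a filter of 50, edgeR, DESeq2, TMM scaling, only the groups compared, the replicate block, without the 3 orig libraries, and without each library in turn. The number of members called under csr-1 RNAi against empty vector was 1 without the orig libraries and 1 to 2 over the 8 single libraries left out; hsp-3 stayed called in all 18. Between csr-1 RNAi and P granule RNAi it was 2 with DESeq2 and 0 to 1 over single libraries left out. Over all genes, csr-1 RNAi against empty vector gave 931 to 2110 calls as single libraries were left out, against 1677 with all; the low counts came without csr-1 RNAi replicates 1 (1036) or 2 (1021) and empty vector replicates 1 (1064) or 2 (931). P granule RNAi against empty vector gave 80 with DESeq2, 4 without the orig libraries and 6 to 7 over single libraries, against 7. csr-1 RNAi against P granule RNAi gave 515 with only the groups compared, 389 without the orig libraries and 535 to 1952 over single libraries, against 1080; it was 718, 535, 585 and 1952 without csr-1 RNAi replicates orig, 1, 2 and 3, and 717 and 688 without P granule RNAi replicates 2 and 3.

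Values near 0 changed sign: as single libraries were left out, the log2 fold change against empty vector ran from −0.0094 to 0.157 for hsp-4 and from −0.0841 to 0.161 for hsp-60 under csr-1 RNAi. Under P granule RNAi it ran from −0.201 to 0.0038 for hsp-60 and from −0.122 to 0.0933 for daf-21, and daf-21 was 0.0888 without the orig libraries. The cause of these changes was not tested. TMM scaling moved the median of all genes by 0.01, −0.03 and 0.04 on the log2 scale.

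Same-named libraries did not deviate together throughout: of 12 same-named pairs, 5 had correlated deviations above 0.1 (range −0.467 to 0.663), and 1 of 12 libraries correlated best with its own name in both other groups. The orig libraries did share the greatest depth of their groups (29.8 to 31.9 M reads) and the lowest sheath marker sums, while their deviations correlated at 0.192 (csr-1 RNAi and P granule RNAi), −0.259 (csr-1 RNAi and empty vector) and 0.521 (P granule RNAi and empty vector). With the replicate name as a block, 2 members were called under csr-1 RNAi, and over all genes 2082, 6 and 1284 were called in csr-1 RNAi against empty vector, P granule RNAi against empty vector and csr-1 RNAi against P granule RNAi.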

Other observations

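F08H9.3 and F08H9.4, a neighbouring pair in the small heat shock protein list, had too few reads to be tested and were noticed after their values were seen. F08H9.4 averaged 19.99 normalised reads under csr-1 RNAi (range 9.71 to 24), 2.82 under P granule RNAi (2.07 to 3.81) and 1.22 with empty vector (0.812 to 2.09). F08H9.3 averaged 14.7 (4.31 to 29.1), 3.10 (1.03 to 8.85) and 0.262 (0 to 1.05) in the same groups. For both genes all 4 csr-1 RNAi libraries were above all 4 empty vector libraries. How often other genes with so few reads separate in this way was not computed.

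T14G8.3, an X-linked gene of the other HSP70 family list, had 518, 546, 541 and 96 reads in csr-1 RNAi libraries and 851, 832, 1291 and 827 in empty vector libraries (log2 fold change −1.42, limma adjusted p = 0.0622). In csr-1 RNAi replicate 3, T24H7.2 was also the lowest of all 12 libraries, at 728 reads. That library had the highest sperm (4558), sheath (2080), body wall muscle (5889) and hypodermis (2553) marker sums of its group. It also had the lowest germline (127258), intestine (8121) and neuron (3226) sums, and the part of those cells was not tested. Y22D7AL.10, the nearest coding neighbour of hsp-60, had 7779 ± 2206 reads under csr-1 RNAi and 5525 ± 1054 with empty vector (SD, n = 4; log2 fold change 0.47, limma adjusted p = 0.136).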
